A study of Mus musculus with 24 samples.

Results

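The comparison described here is that of MSK1 kinase-dead mice (MSK1 KD) with wild-type mice (WT), read in the whole hippocampus over both housing conditions. Its members were the 22 of 24 libraries left after 2 libraries (codes 33B and 34B) were set aside: 11 WT and 11 MSK1 KD, with housing as a blocking factor. Poly-A RNA was sequenced from the whole hippocampus of mice at 12 weeks of age, housed either in standard cages (SH) or with enrichment (EE), that is in a larger space with toys and a running wheel. There were 6 libraries each of WT SH and MSK1 KD SH and 5 each of WT EE and MSK1 KD EE. The mice were male, and each library is treated as 1 mouse, although the labels name no animals.

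MSK1, encoded by Rps6ka5, is a nuclear kinase that the MAP kinases ERK and p38 switch on. In neurons it lies downstream of the neurotrophin BDNF and its receptor TrkB, and it phosphorylates the transcription factor CREB and proteins of chromatin. In the hippocampus this pathway is best known for the transcription of immediate early genes, the rapid response of the genome to synaptic activity. The KD allele is a knock-in: 1 amino acid of the endogenous protein was exchanged, which inactivates the N-terminal kinase domain in every cell of the body and throughout life. The allele leaves the gene to be transcribed, so the level of its mRNA does not check the labels. The KD and WT mice were kept as separate lines, so that any other difference between the lines cannot be told apart from the genotype.

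The 22 libraries held between 8.91 and 56.75 M counts on genes (M, 10 to the power 6), with a median of 29.95 M in WT and 30.56 M in KD, and 3 counts correspond to between 0.0529 and 0.337 CPM (counts per M counts). Of the libraries set aside, 33B had 35.6% of its counts in no gene and 34B held only 16442 counts on genes. KD EE libraries 9 and 7 were the shallowest, and in WT SH libraries 12 and 13 the repeat-derived feature Gm10800 reached 606.5 and 352.8 CPM, against at most 16.1 CPM elsewhere. The p-values measure the spread between these libraries, and in whole tissue fewer cells of a type and less RNA per cell cannot be told apart.

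No gene was called different between the genotypes. With edgeR's quasi-likelihood test over 18482 genes, 0% passed an adjusted p of 0.05 with a log2 fold change of at least 0.38 in size (1.3-fold), and the lowest adjusted p was 0.62. DESeq2 also called 0 genes, with 1300 at an unadjusted p under 0.05. By edgeR, 1218 genes (6.59%) had an unadjusted p under 0.05, of which 693 (3.75%) were higher and 525 (2.84%) lower in MSK1 KD. The median log2 fold change of all genes was 0.00029. No gene separated the 11 KD from the 11 WT libraries without overlap (0% in either direction). All values below are therefore descriptions of genes that did not pass the test, and fold changes are MSK1 KD over WT.

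The transcripts of the kinase itself came first. Rps6ka5 (chr12:100548439-100726983, GRCm38, minus strand) lay between 19.3 and 28.2 CPM in WT, with a median of 22.4, and between 21.0 and 29.5 in KD, with a median of 24.3. The ranges overlapped nearly throughout, and the log2 fold change was 0.08 ± 0.06 (SE), with a 95% interval from -0.05 to 0.20 and an adjusted p of 0.82 by edgeR. Rps6ka4, which encodes the related kinase MSK2, had a log2 fold change of -0.02 ± 0.06 (SE, edgeR adjusted p = 0.96), from 34.6 to 44.4 CPM in WT and from 32.4 to 43.1 CPM in KD. Of the 6 genes of the MSK and RSK kinases, none reached an unadjusted p under 0.05 (6.59% of all genes), and their median was 0.01.

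**Figure D1:**
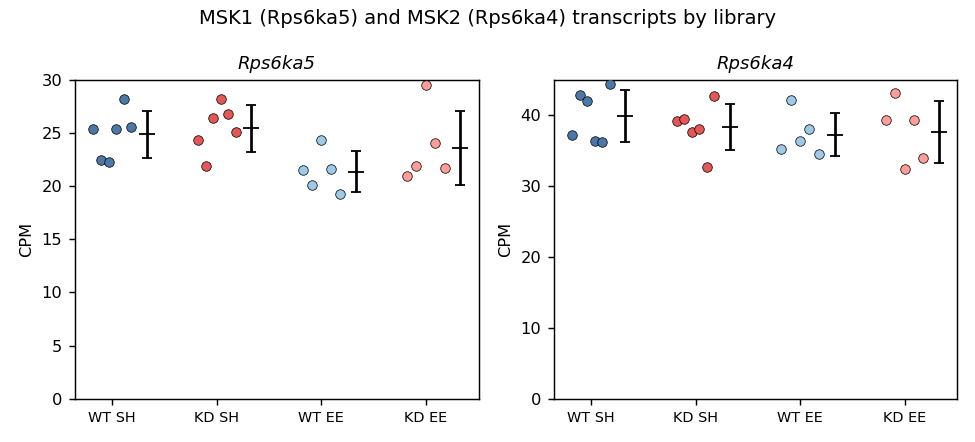
CPM of Rps6ka5 and Rps6ka4 (vertical axis, from 0) in each library of the 4 groups (horizontal axis); the bars beside the points are the mean and SD. The groups overlap for both genes, with Rps6ka5 between 19.3 and 29.5 CPM in all 22 libraries.

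The 25 genes with the lowest p held 15 that were higher and 10 that were lower in KD. Their unadjusted p reached up to 0.0014, and the same sign held in SH and in EE for all 25, which is in part how a pooled p becomes low. Of the 25, 16 had an unadjusted p under 0.05 by edgeR in each housing on its own, which the choice by pooled p favours as well. Over all 18482 genes, 29 had such a p in both housings with the same sign. The choice by lowest p also favours KD libraries beyond all WT libraries. Those counts below are descriptions, without a share over all genes. For 6 of them the median WT level was under 1 CPM, where the shallowest library needs 0.337 CPM for 3 counts. Counting did not use strand, so reads of a gene and of a partner on the opposite strand cannot be told apart.

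Among the genes that were lower in KD, Gm17167, a processed transcript of unknown function (chr4:42206998-42235313, overlapping Gm13301), lay between 0.361 and 0.667 CPM in WT and between 0 and 0.373 CPM in KD, with medians of 0.442 and 0.147. In 10 of 11 KD libraries it was below every WT library. The log2 fold change was -1.36 ± 0.33 (SE, edgeR adjusted p = 0.62).

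Gm44164, an unclassified transcript that overlaps another gene on the same strand, ranged from 1.67 to 4.53 CPM in WT (median 3.07) and from 0.543 to 4.23 in KD (median 1.36). In 8 of 11 KD libraries it lay below every WT library, while KD EE library 9, the shallowest, stood at 4.23. The log2 fold change was -1.06 ± 0.24 (SE). Gm44164 is 1 of 3 genes that the study had chosen in SH.

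Mylk, which encodes the myosin light chain kinase of contractile cells, ranged from 17.4 to 19.8 CPM in WT (median 18.5), against 12.5 to 17.8 CPM in KD (median 15.7). In 9 of 11 KD libraries it was below every WT library, and the log2 fold change was -0.23 ± 0.05 (SE). Adcy5, an adenylyl cyclase, starts 152 kb beyond the end of Mylk on chromosome 16 and ranged from 165 to 196 CPM in WT and from 137 to 187 CPM in KD. Its log2 fold change was -0.16 ± 0.04 (SE). Both genes overlap antisense transcripts.

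The other genes of the 25 that were lower included Asap3, a GTPase-activating protein for Arf (log2 fold change -0.42), Pappa2, a protease of insulin-like growth factor binding proteins (-0.47), and Gpnmb, a transmembrane glycoprotein (-0.33). Clca3a2 (-1.34) has a near relative, Clca3a1, with a log2 fold change of 0.10, between which reads could be split. The remaining ones were 1700014D04Rik (-0.80) and Ubtd2 (-0.29).

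Among the genes that were higher in KD, Trbc2, the constant region of the T cell receptor beta chain (chr6:41546730-41548352), lay between 0.102 and 0.417 CPM in WT (median 0.162) and between 0.111 and 1.68 CPM in KD (median 0.541). In 7 of 11 KD libraries it was above every WT library. The log2 fold change was 1.42 ± 0.33 (SE, edgeR adjusted p = 0.62), with KD SH library 5 highest. Trac, of the T cell receptor alpha chain, had a log2 fold change of -0.15 and Ptprc, of leukocytes, one of -0.0041, both named after their values were seen. In the list of blood markers 5 of 6 were above 0 (50.2% of all genes), with a median of 0.09 (0.35 in SH and -0.21 in EE). None had an unadjusted p under 0.05 over both housings (6.59% of all genes). Their part in the value of Trbc2 was not tested.

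Slirp, which encodes an RNA-binding protein of mitochondria, ranged from 4.91 to 6.61 CPM in WT (median 5.79) and from 5.52 to 10.4 CPM in KD (median 7.80). In 8 of 11 KD libraries it was above all WT libraries, and the log2 fold change was 0.39 ± 0.09 (SE). 2010107E04Rik, which RefSeq names Atp5mpl, a small protein of the mitochondrial ATP synthase, was between 35.8 and 44.0 CPM in WT and between 40.2 and 55.6 CPM in KD. Its log2 fold change was 0.24 ± 0.06 (SE). Both genes are on chromosome 12, as is Rps6ka5.

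Fcer1g, the shared signalling chain of Fc receptors and in brain a gene of microglia, ranged from 4.61 to 6.93 CPM in WT and from 5.79 to 8.74 CPM in KD, with a log2 fold change of 0.31 ± 0.08 (SE). The 12 microglial markers as a list had a median of 0.01 with 1 member higher and 0 lower at an unadjusted p under 0.05, and their summed level was between 396 and 459 CPM in WT and between 377 and 448 CPM in KD. The sums of the genotypes overlapped. Of all genes, 3.75% were higher and 2.84% lower at an unadjusted p under 0.05.

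The other higher genes were the inhibitor of cathepsins Cstb (log2 fold change 0.27), the actin-binding Tmsb4x (0.22), the chaperonin-like Mkks (0.25), Rdm1 (0.31), Mterf1a (0.47), which acts on mitochondrial transcription and has a near-identical neighbour in Mterf1b, 9530077C05Rik (0.25) and the pseudogene Gm14303 (0.57). Gm5415 (1.10) and Gm37999 (1.19) lie 68.1 kb apart within Khdrbs2 on chromosome 1, and Khdrbs2 itself had a log2 fold change of -0.08. The ribosomal Rpl22l1 and Rpl39 complete the 25 and are described with their family.

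**Figure D2:**
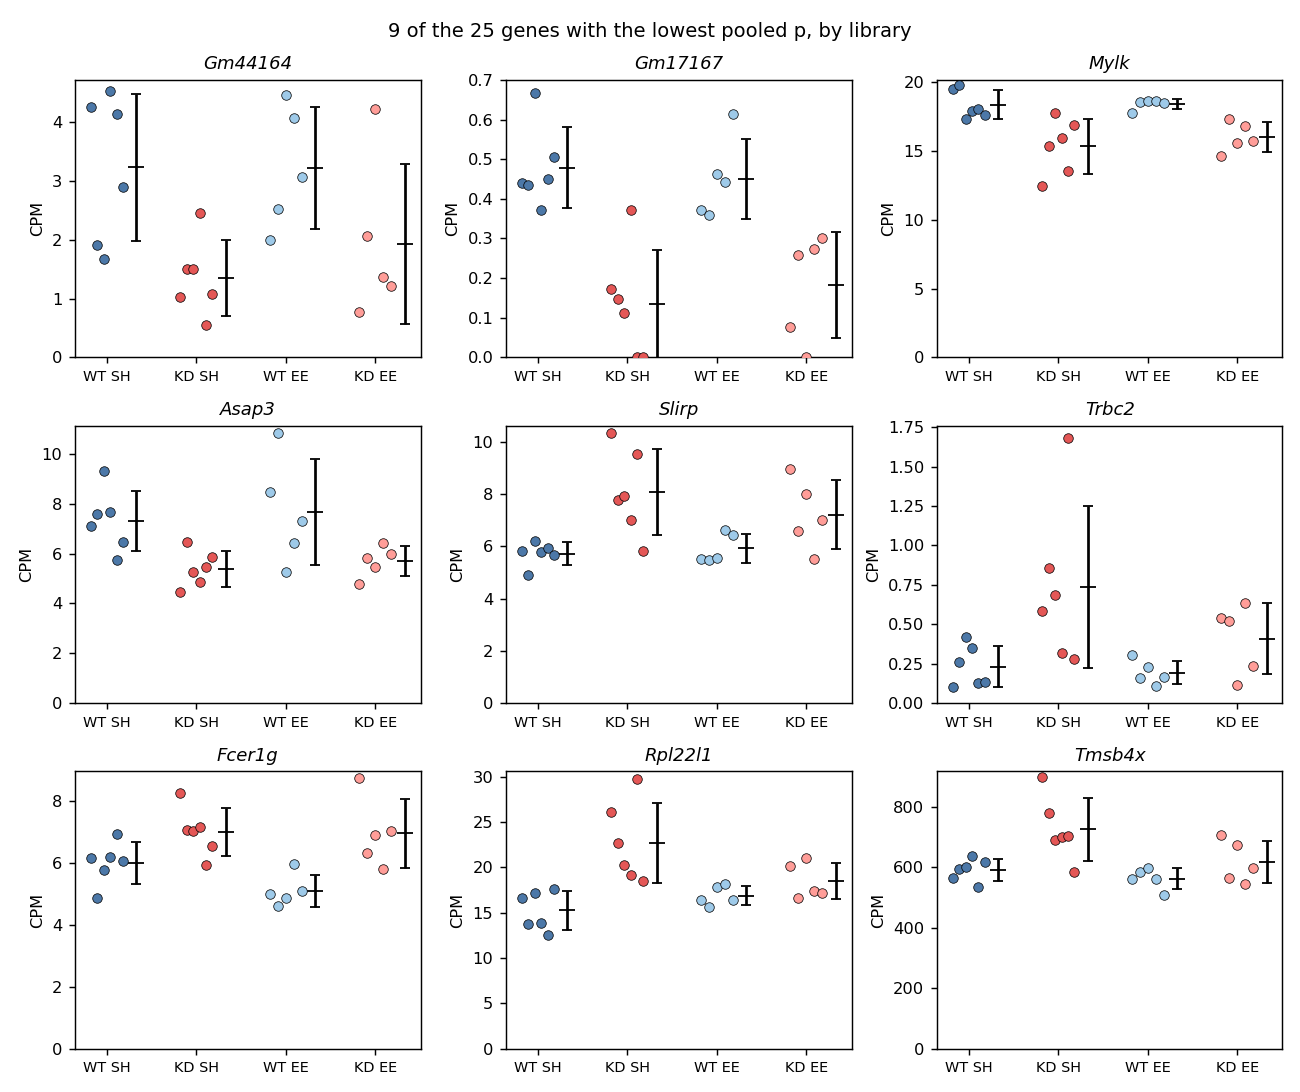
CPM (vertical axes, from 0) of 9 of the 25 genes with the lowest p, in each library of the 4 groups (horizontal axes); bars are the mean and SD. For Mylk and Gm17167 most KD points lie below all WT points, 9 and 10 of 11, and for Slirp and Rpl22l1 8 of 11 lie above them, as the choice by lowest p favours.

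The cytosolic ribosomal proteins, the protein components of the translating ribosome, lay mostly on the high side in KD. Of 81 members, 23 were higher and 0 lower in KD at an unadjusted p under 0.05 (28.4%, against 3.75% of all genes higher). Above 0 lay 73, where 50.2% of all genes were above 0, and the median log2 fold change was 0.08. The median was 0.08 in SH and 0.07 in EE. In SH 13 of 81 were higher at an unadjusted p under 0.05 (2.95% of all genes), and in EE 1 of 81 (1.14% of all genes). Omitting KD SH library 2 left 6 in SH, omitting KD SH library 5 or 6 gave 31 or 29, and omitting WT SH library 12 gave 22. None was called by edgeR. Within SH the DESeq2 Wald test called Rpl22l1, at an adjusted p of 0.00415.

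Rpl22l1, a paralogue of Rpl22, ranged from 12.5 to 18.2 CPM in WT (median 16.4) and from 16.6 to 29.7 CPM in KD (median 20.2). In 8 of 11 KD libraries it lay above every WT library, and the highest were KD SH library 5 and KD SH library 1, at 29.7 and 26.1 CPM. The log2 fold change was 0.37 ± 0.09 (SE, edgeR adjusted p = 0.62), at 0.57 in SH and 0.12 in EE. Rpl39 ranged from 36.2 to 63.1 CPM in WT and from 47.3 to 80.0 CPM in KD, with a log2 fold change of 0.34 ± 0.09 (SE). Rpl9, Rps27 and Rps27a each had a log2 fold change of 0.20. Ribosomal protein genes have many processed pseudogenes, so reads counted as unique may be incomplete.

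The count over both housings rests in part on single libraries. Without KD SH library 2 it was 11, and without KD SH library 5 it was 35. Without libraries 1 and 2 of KD SH it was 8, in the 17 libraries that the study kept it was 10, and without the libraries with lettered codes it was 13. The mean log2 CPM of the family lay between 6.48 and 6.77 in WT and between 6.54 and 6.99 in KD, so the 2 genotypes overlapped over nearly all of the range, with library 2 at the top.

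Transcript length moved with the ribosomal genes. Among 14892 protein-coding genes divided into 4 bins of 3723 by summed exon length, the bin of shortest genes (up to 2802 bases) had a median log2 fold change of 0.03, with 61.5% of genes above 0 and 248 higher against 49 lower at an unadjusted p under 0.05. The bin of longest genes (from 6792 bases) had a median of -0.02, with 36.9% above 0 and 59 higher against 193 lower. The order of the outer bins was the same in SH, from 0.04 to -0.03, and in EE, from 0.02 to -0.01. This gradient was noticed in these data and has no test.

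A score for each library, the median deviation of the shortest bin minus that of the longest bin, ran from -0.22 to 0.18 log2 units in WT and from -0.16 to 0.19 in KD, with medians of -0.03 and 0.01. The genotypes overlapped over almost the whole range, and KD SH library 1 was highest. Without libraries 1 and 2 the shortest bin held 87 genes higher and the longest 61 lower at an unadjusted p under 0.05, and without library 1 alone 153 and 100. The 193 lower genes of the longest bin became 124 without KD SH library 2, 340 without KD SH library 6, 305 and 401 without WT EE libraries 16 and 17, and 317 without KD EE library 32A. With the score as a covariate, 16 ribosomal genes were higher at that level, 2 were lower, and the list median was 0.04. Ribosomal genes were not removed from the bins or from the score. This fit therefore cannot tell them apart from the pattern of length. Whether the score carries RNA quality was not tested.

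**Figure D3:**
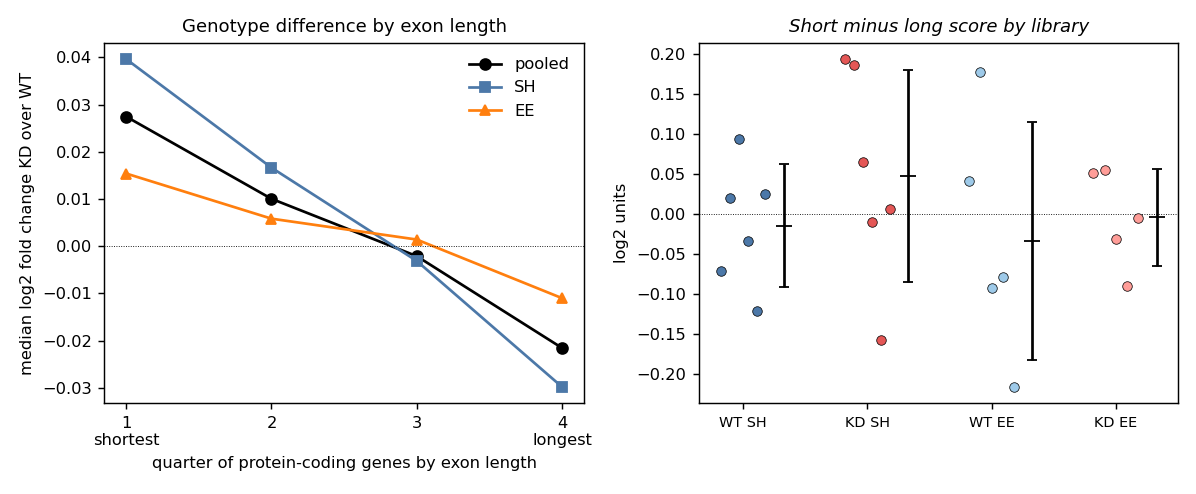
Left: median log2 fold change KD over WT (vertical axis) in 4 bins of protein-coding genes by summed exon length (horizontal axis), for all 22 libraries, SH and EE. Right: the short minus long score in log2 units for each library of the 4 groups, with mean and SD; the pooled median is 0.03 in the shortest bin and -0.02 in the longest, and the scores of the genotypes overlap.

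The genes that transduce or respond to MSK1 signalling did not pass the test. Among 24 genes of the BDNF and MAP kinase cascade, none was higher or lower at an unadjusted p under 0.05, and the median was -0.02. Bdnf ranged from 31.95 to 46.7 CPM in WT (median 40.6) and from 34.1 to 53.9 CPM in KD (median 36.6), with a log2 fold change of -0.03 and a 95% interval from -0.16 to 0.11. Mapk11, a p38 kinase, had the lowest p of the cascade at a log2 fold change of 0.11.

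Of 10 CREB factors and coactivators, only Crtc3, a coactivator of CREB, had an unadjusted p under 0.05 by edgeR, at 0.0233 (6.59% of all genes). It ran from 27.7 to 33.5 CPM in WT and from 21.5 to 31.7 CPM in KD, with a log2 fold change of -0.14. Creb1 itself ran from 44.8 to 68.9 CPM in WT and from 52.8 to 72.7 CPM in KD, at a log2 fold change of 0.11 with a 95% interval from -0.02 to 0.24. The KD SH library 5 stood alone for Creb1 at 72.7 CPM. Of the chromatin proteins that MSK1 phosphorylates or that carry its marks, 0 of 5 genes reached an unadjusted p under 0.05 (6.59% of all genes).

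The immediate early genes lay on the low side in KD. Of 30 members, 24 were below 0 and 6 above, where 50.2% of all genes were above 0. The median was -0.10, and none reached an unadjusted p under 0.05 (6.59% of all genes). Junb, a subunit of the AP-1 factor, ranged from 42.2 to 68.6 CPM in WT (median 61.0) and from 36.6 to 72.5 CPM in KD (median 48.5), at a log2 fold change of -0.21. Npas4 and Egr4, transcription factors induced by activity, had log2 fold changes of -0.16 and -0.21.

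Fos ran from 14.3 to 38.6 CPM in WT and from 12.6 to 39.0 CPM in KD, with a log2 fold change of -0.22 and a 95% interval from -0.60 to 0.15. Arc, which encodes a synaptic protein that helps to remove AMPA receptors, ran from 103 to 240 CPM in WT and from 103 to 296 CPM in KD at 0.08, with an interval from -0.23 to 0.40. The spread of these 2 genes within each genotype was larger than the difference between the genotypes. Their pooled values average opposite signs: the log2 fold change of Fos was -0.50 in SH and 0.12 in EE, and that of Arc -0.17 and 0.39. Neither gene was called in SH or in EE.

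Within SH the median of the 30 genes was -0.16, with 7 lower and 0 higher at an unadjusted p under 0.05 (2.81% of all genes were lower in SH and 2.95% higher, with 5.76% in either direction and 0 called by edgeR, while DESeq2 called Cstb and Rpl22l1, 2 genes). In EE the median was -0.0042 and 0 of 30 were lower (1.14% of all genes were higher in EE and 1.47% lower, 2.61% in either direction, with 0 called by edgeR and 0 by DESeq2). The count in SH ranged from 1 to 10 when single libraries were left out, 1 without WT SH library 10, 2 without KD SH library 2 or WT SH library 13, 3 without KD SH library 4, and 4 without KD SH library 5, WT SH library 11 or WT SH library 15. No member passed the test of the interaction.

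ERK feedback inhibitors, which include the Sprouty proteins and the Dusp phosphatases, had 0 of 15 at an unadjusted p under 0.05 (6.59% of all genes). Their median was -0.02. Dusp1 ranged from 19.1 to 29.3 CPM in WT and from 15.2 to 30.8 CPM in KD, with the highest value in KD EE library 32A.

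At the synapse, the AMPA and NMDA receptor list (18 of 19 genes tested) had a median of -0.08, with 14 below 0 (50.2% of all genes were above 0). At an unadjusted p under 0.05, 2 were lower and none higher (2.84% of all genes were lower). The 2 were Cacng8, an auxiliary subunit of AMPA receptors that is abundant in hippocampus, at -0.18, and Grin3a, an NMDA receptor subunit, at -0.10. Gria1 had a log2 fold change of -0.08, with a 95% interval from -0.20 to 0.03, and Gria2 one of 0.01, with an interval from -0.10 to 0.12.

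The postsynaptic scaffolds, which anchor these receptors, had 13 of 16 below 0 (50.2% of all genes were above 0) and a median of -0.08. Shank3 (-0.17), Dlgap2 (-0.19) and Shank1 (-0.16) were lower at an unadjusted p under 0.05, and Dlg1 (0.12) was higher, that is 3 and 1 of 16, where 2.84% of all genes were lower and 3.75% higher. Shank3 ran from 301 to 383 CPM in WT and from 240 to 359 CPM in KD. The 15 genes of the GABA-A receptor list had a median of -0.03 and none was called.

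**Figure D4:**
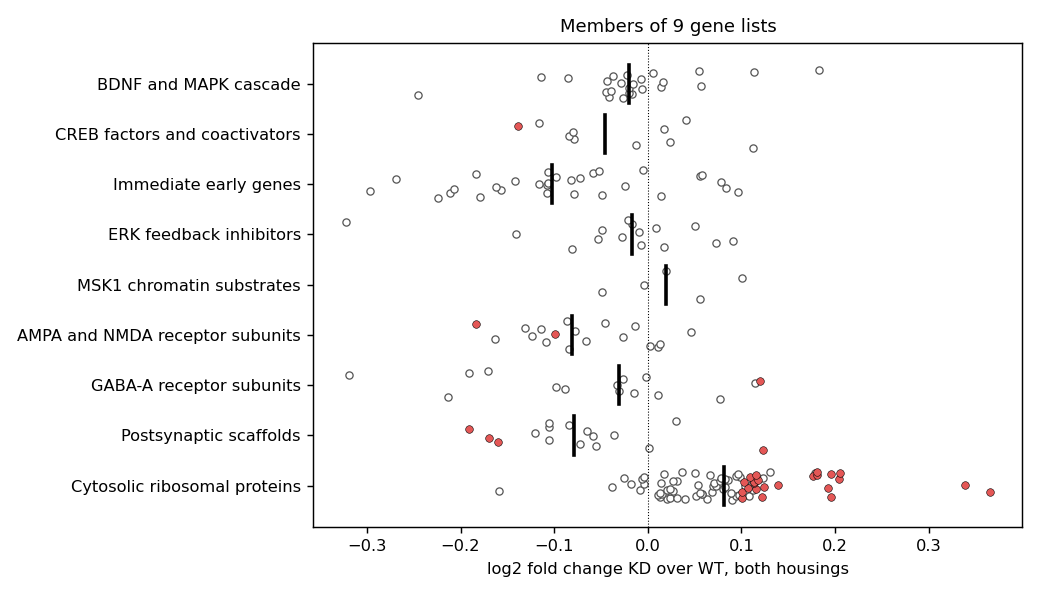
Log2 fold change KD over WT over both housings (horizontal axis) for each member of 9 gene lists (rows); filled points had an unadjusted p under 0.05 and black bars are list medians. The ribosomal proteins lie to the right of 0 at a median of 0.08, and immediate early genes to the left at -0.10.

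CREB binds the cAMP response element TGACGTCA, which reads the same on both strands. Promoters of RefSeq (GRCm38.p6, 250 bases before to 50 bases after a start, 300 bases) were searched for it, and 1.79% of 32851 promoters held it. Of 12540 tested genes with a promoter in the table, 416 (3.32%) held it in at least 1 promoter, and their median log2 fold change was 0.01 against 0.0013 for the rest. At an unadjusted p under 0.05 were 6.01% of the genes with the element and 6.78% of those without. Of the 25 genes with the lowest p, 17 had a promoter in the table and 2 held the element, Mkks and Mterf1a. In the MSK1 pathway lists at least 5 genes held it, among them Dusp1, Btg2, Maff and Errfi1. The log2 fold changes of these 5 lay between -0.14 and -0.02. Promoters of some list members were left out of this count. The promoters of Mkks, Mterf1a and Dusp1, the last chosen as the pathway gene with the lowest p of the 5, are shown with the element in capitals.
Mkks, chr2:136891357-136891656, minus strand: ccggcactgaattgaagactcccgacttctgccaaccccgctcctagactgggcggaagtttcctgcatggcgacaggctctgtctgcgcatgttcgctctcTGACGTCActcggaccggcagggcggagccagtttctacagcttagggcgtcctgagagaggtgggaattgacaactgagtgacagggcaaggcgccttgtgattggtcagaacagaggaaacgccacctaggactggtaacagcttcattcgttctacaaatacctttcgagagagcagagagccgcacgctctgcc
Mterf1a, chr5:3893884-3894183, minus strand: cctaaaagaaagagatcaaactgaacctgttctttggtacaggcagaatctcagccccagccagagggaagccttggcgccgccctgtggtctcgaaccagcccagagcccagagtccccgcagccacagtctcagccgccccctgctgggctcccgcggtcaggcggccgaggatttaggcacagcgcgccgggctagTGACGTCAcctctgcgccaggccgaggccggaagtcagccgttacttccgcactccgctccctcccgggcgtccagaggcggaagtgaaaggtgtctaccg
Dusp1, chr17:26508423-26508722, minus strand: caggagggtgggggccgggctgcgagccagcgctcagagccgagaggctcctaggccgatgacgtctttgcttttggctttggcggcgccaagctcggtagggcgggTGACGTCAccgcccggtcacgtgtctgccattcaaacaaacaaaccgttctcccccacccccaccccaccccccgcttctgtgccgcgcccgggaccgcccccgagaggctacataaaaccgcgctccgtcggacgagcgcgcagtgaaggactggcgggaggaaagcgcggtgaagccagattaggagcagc
The match is a description and says nothing of binding in these samples.

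Whether a genotype difference stood for both housings was read from SH and EE, which share no library. The interaction of genotype and housing had 0 genes called by edgeR, 0 by DESeq2, and 377 genes (2.04%) at an unadjusted p under 0.05, of which 0.703% of all genes were higher and 1.34% lower. The lowest p of the interaction were those of Zfp541 (log2 difference of the fold changes, EE minus SH, of -1.03), Dlgap5 (-2.22), Gm20632 (-1.01), Gm20633 (-1.03) and Gm13421 (-1.36), each with an adjusted p of 1 by edgeR.

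Across 18482 genes the log2 fold changes in SH and in EE had a Pearson correlation of 0.0966 and a Spearman correlation of 0.161, given as a description since genes are not independent. Of 1065 genes at an unadjusted p under 0.05 in SH, 788 had the same sign in EE (74.0%), and of 482 such genes in EE, 295 had the same sign in SH (61.2%). The 2 lists shared 29 genes with the same sign, 2.72% of the first and 6.02% of the second, and 3 genes had opposite signs. Counted in 1 direction, the backgrounds were 1.14% higher and 1.47% lower in EE, and 2.95% higher and 2.81% lower in SH.

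**Figure D5:**
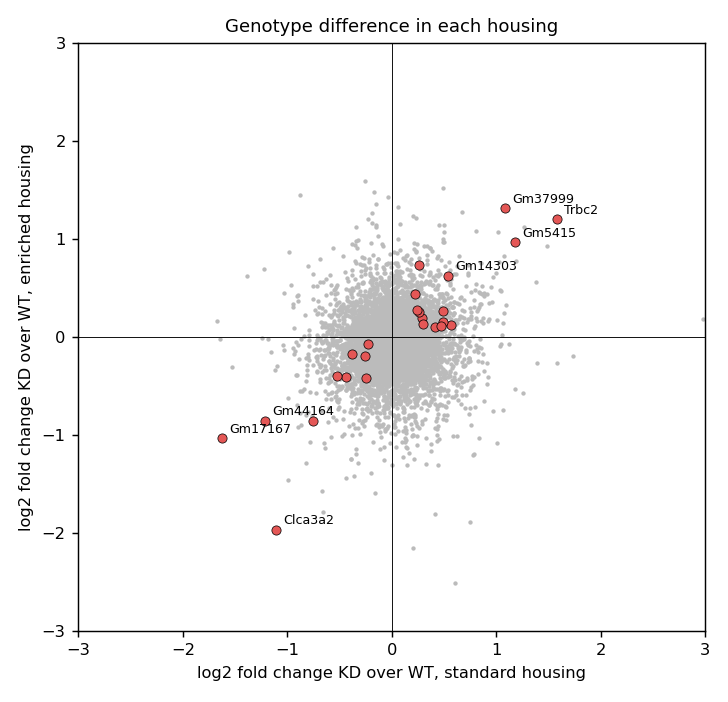
Log2 fold change KD over WT in EE (vertical axis) against that in SH (horizontal axis) for the 18482 genes tested, with axes from -3 to 3 and 1 gene outside; the 25 genes with the lowest pooled p are filled. All 25 have the same sign in both housings, as the pooled p favours, and the cloud of other genes is nearly round, with a Pearson correlation of 0.0966.

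The study had chosen 3 genes for a genotype difference in SH and 11 in EE, and each set was read in the housing that had not chosen it. The 3 SH genes had the same sign in EE, with log2 fold changes of 0.12 for Rpl22l1, 0.15 for Rpl39 and -0.86 for Gm44164. Without KD EE library 9 the value of Rpl22l1 was 0.07, and without KD EE library 7 that of Rpl39 was 0.07. That of Gm44164 was -1.20 without KD EE library 9 and -0.69 without KD EE library 7. In exact two-sided permutation tests of log2 CPM, their unadjusted p were 0.175, 0.119 and 0.0952, where the smallest p possible was 0.00794. The unadjusted p of edgeR in EE were 0.338, 0.231 and 0.0296, with a 95% interval from -1.62 to -0.09 for Gm44164. None of the 3 was called in EE.

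Of the 11 EE genes, 5 had the same sign in SH, and the largest log2 fold change in SH was 0.21 in size. For Rarres2, Egr1, Vwa5b1 and Pih1d2 the sign in SH was the opposite without at least 1 single library. In exact permutation tests their p ran from 0.186 to 0.944. Rarres2, which encodes the chemoattractant chemerin and was also 1 of the ependymal markers, ran at 4.75, 5.17, 3.14, 3.96 and 2.26 CPM in WT EE and at 1.93, 2.62, 2.00, 2.52 and 2.81 CPM in KD EE. The highest KD values lay above the lowest WT value. In EE its log2 fold change was -0.65, and in SH it was -0.05 with a 95% interval from -0.39 to 0.29. P2rx6, an ATP-gated channel, had -0.50 in EE and -0.09 in SH. The growth-response gene Egr1 had 0.28 in EE and -0.06 in SH, and Spry4, an ERK inhibitor, had 0.24 and -0.06.

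The line history of the mice was read at the allele and at genes that differ between the substrains C57BL/6J and C57BL/6N, since the allele was made in C57BL/6N cells and then crossed to C57BL/6J. Of 338 annotated genes within 10 Mb of Rps6ka5, 118 were tested, 2 were higher and 8 lower at an unadjusted p under 0.05 (1.69% and 6.78%, against 3.75% and 2.84% of all genes), and none was called. Within 5 Mb 2 were higher and 2 lower of 68 tested, and within 20 Mb 13 were higher and 14 lower of 295. Within 20 Mb the lowest edgeR adjusted p was 0.62, against 0.74 within 10 Mb. The 0.62 is the lowest of all genes tested, a tied value that Rpl22l1 and Rpl39 also had. Slirp and 2010107E04Rik, of the 25 genes with the lowest p, lie on chromosome 12 outside the 10 Mb. The 0.62 within 20 Mb comes from at least 1 of these 2 genes. Within 10 Mb the lowest p were at Ccdc85c (log2 fold change -0.23), Hhipl1 (-0.24) and Dicer1 (-0.10), which encodes the enzyme that cuts microRNA precursors. Dicer1 ran from 82.0 to 91.9 CPM in WT and from 71.2 to 87.9 CPM in KD, with 6 of 11 KD libraries below all WT libraries.

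Of 10 tested substrain genes, Crb1, a polarity protein that is mutated in C57BL/6N, ran from 1.32 to 2.19 CPM in WT and from 0.779 to 1.79 CPM in KD, with a log2 fold change of -0.44 ± 0.12 (SE, edgeR adjusted p = 0.74). Nnt, a mitochondrial transhydrogenase that C57BL/6J mice lack as an intact gene, ran from 19.4 to 26.6 CPM in WT and from 20.5 to 38.5 CPM in KD. The 3 highest Nnt values, 38.5, 33.8 and 29.8 CPM, were in KD libraries 5, 32A and 6. Gabra2, whose level differs between substrains, ran from 80.7 to 255 CPM in WT and from 81.8 to 177 CPM in KD. The genotypes overlapped, and its log2 fold change was -0.21. The part of line differences in any value was not tested.

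Genotype did not separate the libraries on the leading axes of variation. Of the first 5 principal components of the 500 most variable genes, which held 45.5%, 11.9%, 7.91%, 5.85% and 3.84% of the variance, none passed the test for a genotype difference. Adjusted p ran from 0.303 to 0.923 by an exact two-sided permutation test within housing. Component 1 was led by Tmem72 and Ttr, genes of the choroid plexus, whose 15 listed markers summed to between 232 and 8139 CPM in WT and between 224 and 8447 CPM in KD. Of those markers, none was higher or lower at an unadjusted p under 0.05 (6.59% of all genes). Component 2 was highest in KD EE libraries 9 and 7, the 2 shallowest.

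Markers of neighbouring tissue were highest in single libraries. Thalamic markers summed to 615 CPM in WT SH library 12 against up to 287 in KD, and striatal markers to 382 CPM in WT SH library 14 against up to 237 in KD. The list medians were -0.17 and -0.16, and without those libraries they were nearer 0, at 0.02 and -0.01. Without both libraries the number of genes called was 0 and the number at an unadjusted p under 0.05 was 1207. Hippocampal markers were present in every library: those of the dentate gyrus summed to between 471 and 614 CPM in WT and between 380 and 595 CPM in KD, and those of CA1, CA2 and CA3 to between 912 and 1048 CPM and between 729 and 1040 CPM. KD SH library 5 was lowest for both lists, and highest for cortical markers, at 538 CPM against up to 454 CPM in WT. Without it the number of genes called was 0 and the number at an unadjusted p under 0.05 was 1121. The part of cortical tissue in the values of this library was not tested.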

How the data were processed

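Raw counts per gene were used as the authors deposited them, 1 table for each library. Per the labels and the study's methods, poly-A libraries were sequenced paired-end, aligned to GRCm38 with STAR 2.5, and counted with HTSeq from unique alignments without regard to strand. A summary table of the authors' own comparisons was not used. Features that name no gene were left out of library sizes and took between 10.05% and 14.19% of counts as no feature. The 231 pairs of libraries held 0 identical pairs.

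Genes with enough counts by edgeR's filterByExpr were kept (18482 of 49568 symbols), scaled by TMM and tested with edgeR 4.0.16 (quasi-likelihood, R 4.3.3) for genotype with housing as a block, and in a fit of 4 groups for SH, EE and their interaction. A call needed a Benjamini-Hochberg adjusted p of at most 0.05 together with a change of 0.38 or more in log2 units. CPM use the TMM library sizes. Alternatives were DESeq2 1.42.0, its size factors, other filters, other covariates and blocks, other sets of libraries, and omission of single libraries. The steps were tested on simulated counts with changes set in well-counted genes. Of 50 genes changed 1.3-fold 19 were called, of 50 changed 1.5-fold all 50, and 5 other genes were called falsely. The 1.3-fold change lay at the limit for a call, with a median estimate of 0.372 log2 units against 0.38. That count therefore reflects the limit as well. The simulated libraries held no differences in housing or tissue. The counts cannot say what share of such changes would be called in the real libraries.

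Named genes were the 25 of lowest p, the MSK genes, the study's lists, the substrain genes, the 3 lowest p of each other list with Bdnf, Creb1, Arc, Fos, Gria1 and Gria2, the 3 lowest near Rps6ka5 and the 5 lowest for the interaction. Values of some genes are not reported here. Members and lists were chosen with earlier results of these data known. Figures used matplotlib 3.10.9.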

Additional observations from a re-analysis of the deposited data

Results flagged for a closer look

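In 340 groups of 5 or 6 libraries, 20 had a highest or lowest library that stood far from the others, by a gap to the next that was large against the range of the group. Chance flags about 1 in 20 groups. KD SH library 5 held 4 of them, KD EE library 9 held 3, and 2 each were in KD SH library 1, KD EE libraries 7 and 8 and WT EE library 35A. The causes were not tested.

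In KD SH library 5, at the high end, were Dlg1 (164.6 CPM against up to 134.2 in the others), Creb1 (72.71 against up to 58.57), Egr1 (221.7 against up to 167.3) and Rps6ka3 (64.24 against up to 46.92). KD SH library 1 was high for 9530077C05Rik (8.366 CPM against up to 7.19) and Dlgap5 (0.6197 against up to 0.3798).

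In WT SH, library 12 was low for Ep300 (91.48 CPM against at least 103.3), and library 15 was high for 9530077C05Rik (7.292 against up to 6.097).

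In KD EE, library 9 was high for Gm14303 (3.562 CPM against up to 2.144) and Pih1d2 (4.452 against up to 2.278) and low for Hhipl1 (3.005 against at least 3.819). Library 7 was low for Dnaic2 (2.011 against at least 3.562) and high for Zp2 (0.9281 against up to 0.2587). Library 8 was high for Adcy5 (187.2 against up to 169.4) and low for Chl1 (209.5 against at least 237.6), and library 32A was high for Dusp1 (30.76 against up to 20.08).

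In WT EE, library 16 was low for Mylk (17.77 CPM against at least 18.47), library 17 was high for Mapk7 (34.21 against up to 28.35), and library 35A was high for Dicer1 (91.9 against up to 85.12) and Rps6ka3 (57.56 against up to 45.14).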

How the results depend on the processing

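The pooled comparison had 0 genes called under every alternative run, by edgeR or DESeq2, and so had the interaction. The number of genes at an unadjusted p under 0.05 was 1218, from 828 (without KD SH library 1) to 1784 (without KD SH library 6) over the left-out libraries, 2455 with no filter on low counts and 630 without KD SH libraries 1 and 2. Within SH the DESeq2 Wald test called 2 genes, Cstb and Rpl22l1, where edgeR called 0. Within EE 1 gene, Amd2, was called in the 17 libraries of the study, and leaving out single libraries gave from 0 to 1, with 1 without KD EE library 9. The cause was not tested. In all 22 libraries the log2 fold change of Amd2 in EE was -2.16. The settings without libraries 1 and 2, without libraries 12 and 14 and with the transcript length score as a covariate were chosen after seeing the data.

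All 25 genes of lowest p had the same sign in each of 884 alternative values. Their choice by lowest p in these same libraries favours this, so it is no separate check. Their lowest adjusted p was 0.119, by DESeq2. The medians of the immediate early, ribosomal, glutamate receptor and scaffold lists had the same sign in 116 of 116 alternative values, and over all lists 81 of 986 had the opposite sign. Most of these fits share nearly all their libraries, which favours the same sign. They are fits over both housings, and the immediate early median was -0.16 in SH and -0.0042 in EE. Within SH, 5 glutamate receptor genes and 5 scaffold genes were lower at an unadjusted p under 0.05 (2.81% of all genes), and without KD SH libraries 1 and 2 there were 2 and 1. Over the left-out libraries the first count ran from 1 (without KD SH library 5 or WT SH library 15) to 6. It was 2 without KD SH library 1 or WT SH library 11, and 3 without KD SH library 2, 4 or 6. The second ran from 1 (without KD SH library 1) to 7, with 2 without KD SH library 5 or WT SH library 15 and 3 without KD SH library 4 or WT SH library 11. The lowest adjusted p of a principal component under any alternative was 0.0935, by the exact permutation test. No paired analysis was possible because each library has a code of its own and the groups share no replicate numbers. The depth of KD EE library 9 limits genes under 0.337 CPM.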

Other observations

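Gm10800, a repeat-derived feature, had the largest pooled log2 fold change in size of the 18482 genes, -4.61 with an edgeR adjusted p of 0.74. It was at 606.5 and 352.8 CPM in WT SH libraries 12 and 13, and at most 16.1 CPM in the other 20 libraries. The ribosomal RNA feature Rn18s-rs5 was highest in WT EE library 35A at 3707 CPM and lowest in KD EE library 7 at 44.3 CPM. Both features were named after their values were seen.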
